A study of Mus musculus with 12 samples.

Results

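Sf3b1 K700E alone was compared with the Mx1-Cre control in bone marrow progenitors of the mouse. The comparison took 6 of the 12 RNA-seq libraries of the series: the 3 titled Mx1-Cre Sf3b1-K700E and the 3 titled Mx1-Cre. It was read across the autosomal genes: 13252 of the 23248 listed were tested, among 24411 genes in the tables. Every donor was C57BL/6 and carried Mx1-Cre, a recombinase under an interferon-inducible promoter that is active in blood cells and also in other interferon-responsive cells. The control donors had no other listed allele, and the mutant donors were heterozygous for Sf3b1 K700E. CD45.2 donor marrow had been mixed with wild-type CD45.1 support marrow and transplanted into lethally irradiated CD45.1 recipients. All recipients then received pIpC, a double-stranded RNA mimic that induces interferon and so the recombinase, in 3 doses of 20 mg/kg. Lineage-negative, cKit-positive cells were taken from femora and tibiae 6 months later. Whether CD45.2 cells were sorted from CD45.1 cells, the sex of the mice, and whether the replicates are separate mice are points that the sources used here leave unstated, so p-values measure the spread between these libraries. The other 6 libraries carried an inv(3) allele, alone or with Sf3b1 K700E (the double group), and entered the same model.

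SF3B1 is a subunit of the U2 small nuclear ribonucleoprotein, which recognises the branch point of an intron before splicing. Hotspot mutations such as K700E change which branch point, and so which 3' splice site, is used, and some of the altered transcripts are destroyed by nonsense-mediated decay. The mutation is common in myelodysplastic syndromes with ring sideroblasts, in which red cell precursors load iron into mitochondria. Lineage-negative, cKit-positive marrow holds stem cells, early progenitors and the promyelocyte stage that stocks the primary granules of neutrophils.

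Libraries held 73074797 to 86555638 expected counts, and no replicate pair agreed within sampling noise. On the 6 libraries, the first principal component took 58.7% of the variance, with control at -18.2, -15.1 and -10.3 and Sf3b1 K700E at 15.9, 21.0 and 6.69. Kit, the receptor of the gate, was 465, 439.8 and 462 CPM in control and 420.4, 434 and 433 CPM in Sf3b1 K700E, a difference of -0.09 ± 0.04 log2 units (SE, adjusted p = 0.166). The lineage marker Cd4 was low, averaging 0.473 and 1.82 CPM in control and Sf3b1 K700E. Of 13 gate markers 3 were called higher, among them Cd4 and Slamf1, and 2 lower (Fcgr3 and Fcgr2b). Of all tested autosomal genes 3.97% were higher and 4.97% lower. One sex-linked transcript parted the groups. Xist, which coats and silences the inactive X in females, was 34.7, 23.99 and 39.9 CPM in control and 191, 209.7 and 77.1 CPM in Sf3b1 K700E (2.28 ± 0.35, adjusted p = 0.00701), whereas Y-linked counts were 20343 to 20418 in control and 19200 to 25380 in Sf3b1 K700E. The lowest of the 3 mutant values of Xist was that of replicate 3.

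Across the transcriptome, genes that rose lay at lower levels and changed more than genes that fell. At an adjusted p under 0.05 by edgeR's quasi-likelihood test, 526 autosomal genes were higher in Sf3b1 K700E (3.97% of those tested) and 659 were lower (4.97%), together 8.94% (8.84% with the X and Y chromosomes included). Which direction held more calls depended on the setting. RLE scaling gave 570 higher and 553 lower, and the 6 libraries alone 786 and 661, whereas DESeq2 gave 870 and 933. The median change was 0.68 log2 units among higher genes, whose median level went from 5.53 to 11.0 CPM, and -0.31 among lower genes, whose median level went from 76.3 to 61.2 CPM. Of the higher genes, 115 moved by 1 to 2 log2 units and 78 by over 2, against 10 and 0 of the lower ones. Among genes averaging under 2 CPM, 5.9% were higher and 0.676% lower. From 2 to 10 CPM the shares were 6.27% and 2.76%, from 10 to 50 CPM 3.55% and 4.29%, and at 50 CPM or more 2.26% and 9.06%. A gene could pass the low-count filter through a single group. For a gene that passed only through Sf3b1 K700E, a rise was the only call open. How many of all the low-level calls passed that way was not counted. The median over all tested autosomal genes was -0.01. The groups did not overlap in 33.5% of tested autosomal genes, and calls past 2-fold were 1.53%. All 526 higher genes and 654 of the 659 lower ones were without overlap. For a called gene, a lack of overlap thus adds little, and genes named for the largest changes had to show it. The share called ran from 6.25% on chromosome 16 to 10.9% on chromosome 9, and within 5 Mb of Sf3b1, where DNA linked to the allele can differ between donors, it was 4 of 60 genes (6.67%). Within 20 Mb it was 13 of 184 (7.07%), Il1rl1 and Slc11a1 among them. Wdfy1, named below, lies farther off on the same chromosome. The part of linked DNA in these calls was not tested.

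**Figure D1:**
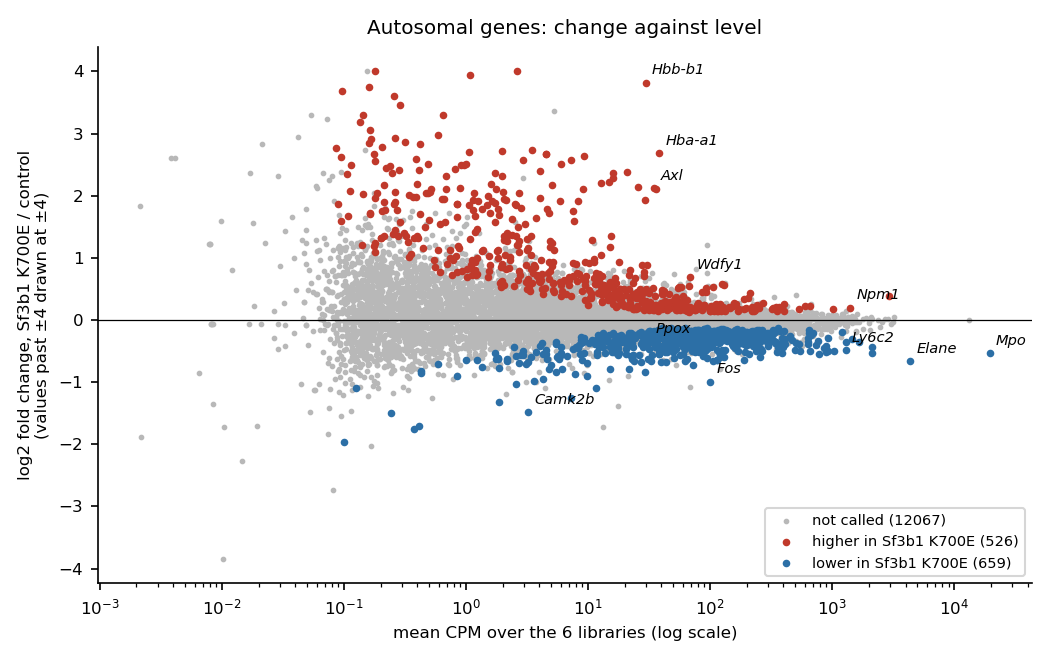
Log2 fold change of each tested autosomal gene (vertical axis, Sf3b1 K700E minus control, drawn within 4 units either way) against its mean CPM over the 6 libraries (horizontal axis, log scale). Red points are the 526 higher genes, blue points the 659 lower genes and grey points the genes not called. Large rises lie at low levels, and falls lie at high levels and are small.

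The number of calls depended most on 2 libraries. With control replicate 2 left out, 113 autosomal genes were higher and 97 lower, and with Sf3b1 K700E replicate 2 left out 113 were higher and 52 lower. Below, a call is said to hold when it passed with any 1 of the 12 libraries left out, and otherwise the libraries whose loss ended it are named, with C1 to C3 for control replicates 1 to 3, S1 to S3 for Sf3b1 K700E, I1 to I3 for inv(3) alone and D1 to D3 for the double group. With log2 Xist as a covariate over the 9 libraries without the inv(3)-alone group, no gene was called (223 higher and 169 lower at an unadjusted p under 0.05). Xist itself parts the 2 groups, so that fit cannot tell Xist from genotype well.

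**Figure D2:**
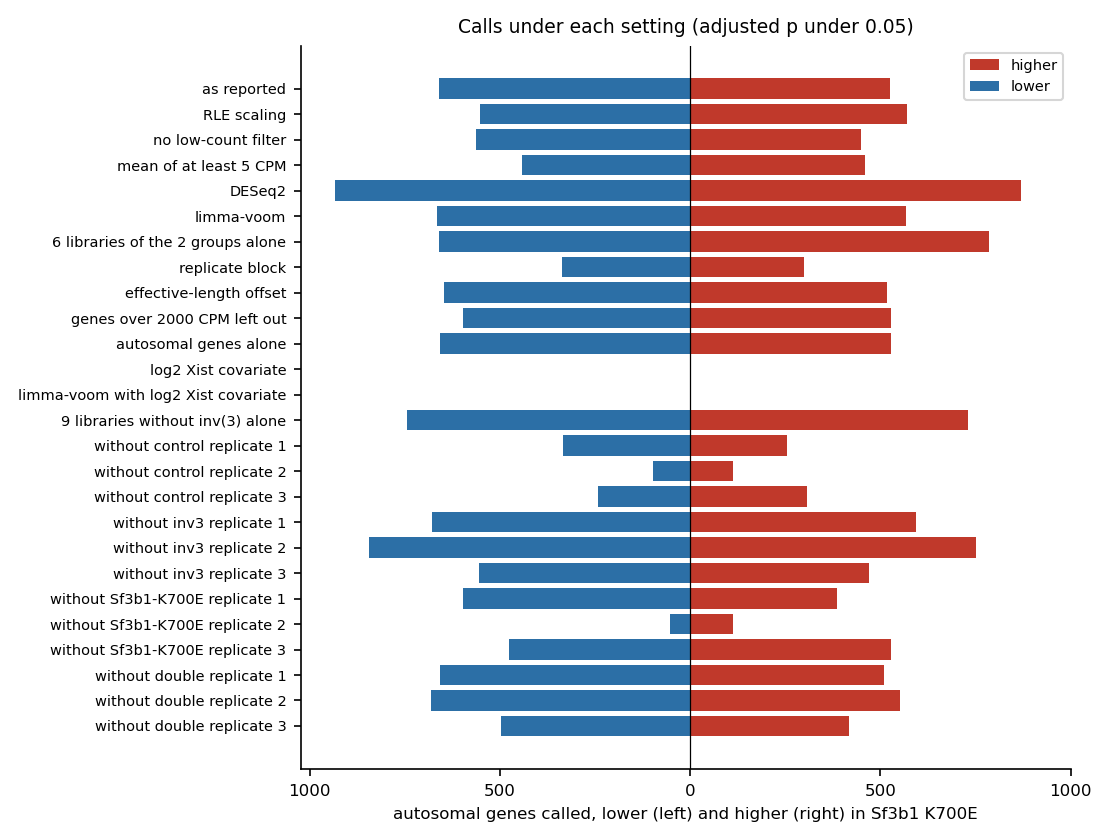
Number of autosomal genes called higher and lower (horizontal axis) under each processing setting and with each library left out (rows). The counts are 0 with log2 Xist as a covariate, and the next lowest are those without control replicate 2 (113 and 97) or Sf3b1 K700E replicate 2 (113 and 52).

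The allele and the genes at the inv(3) breakpoints came first. Sf3b1 (GRCm38, chromosome 1, 54985169 to 55027501) was 674, 620.0 and 609.7 CPM in control and 582, 638 and 656 CPM in Sf3b1 K700E, and the groups overlapped (-0.02 ± 0.06, adjusted p = 0.848). A point mutation leaves the level free, so this does not check the labels. Mecom, the stem-cell transcription factor also called EVI1 (chromosome 3, 29951296 to 30509759), was 5.49, 6.59 and 6.37 CPM in control and 7.12, 11.0 and 7.32 CPM in Sf3b1 K700E. All 3 mutant values were above the control ones, yet the difference did not pass (0.46 ± 0.20, adjusted p = 0.162). Gata2, a zinc-finger factor active in stem and mast cells (chromosome 6, 88193891 to 88207032), was 63.2, 83.4 and 87.8 CPM in control and 128, 119 and 94.2 CPM in Sf3b1 K700E, again without overlap and without a call (0.54 ± 0.17, adjusted p = 0.0752). Rpn1, an oligosaccharyltransferase subunit, was at 546, 541 and 547 against 537, 525 and 532 CPM (-0.04 ± 0.05, adjusted p = 0.696).

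The splicing machinery itself showed few and small changes. Of 16 SF3A and SF3B subunits and partners, none was called by edgeR (2 higher at an unadjusted p under 0.05; DESeq2 called 1 higher and limma-voom none), with a median of 0.01. Of 41 other splicing factors 5 were higher and none lower (background 3.97% and 4.97%), with a median of -0.01. Luc7l, a U1-associated factor, was 149, 146 and 134 CPM in control and 173, 174 and 170.3 CPM in Sf3b1 K700E, so that every mutant library lay above every control one (0.27 ± 0.05, adjusted p = 0.00929), and this call held. Srsf10 (0.21 ± 0.05, adjusted p = 0.0170), a splicing regulator with serine-arginine repeats, and Prpf4 (0.15 ± 0.03, adjusted p = 0.0216), a protein of the tri-snRNP, also rose, as did Srsf7 (0.15) and Tra2b (0.21), which were chosen after their values were seen. Losing a library ended the calls of Srsf10 (without C2 or S2, adjusted p up to 0.0873), Prpf4 and Srsf7 (without C1, C2 or S2, adjusted p up to 0.110) and Tra2b (without C1, C2, C3, S1 or S2, adjusted p up to 0.116). Of 22 factors of nonsense-mediated decay, edgeR called none (1 higher and 4 lower at an unadjusted p under 0.05; none by DESeq2 or limma-voom), with a median of -0.03.

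Among genes listed as targets of mutant SF3B1, those that were called fell. Of 23 tested, 5 fell and none rose, and the list's median was -0.03. The background was 4.97% lower, and 9.06% among genes at 50 CPM or more. Ppox, the penultimate enzyme of heme synthesis (chromosome 1, 171276991 to 171281193), was 34.9, 36.5 and 35.7 CPM in control and 28.2, 27.8 and 28.3 CPM in Sf3b1 K700E, with the groups apart. Its change was -0.35 ± 0.04 (adjusted p = 0.00428), and the call held. Coasy, the last enzyme of coenzyme A synthesis, was at 54.1, 55.8 and 57.1 against 49.2, 43.2 and 48.0 CPM (-0.25 ± 0.05, adjusted p = 0.0151), and Ppp2r5a, a phosphatase subunit that acts on MYC, at 183, 183 and 177 against 145, 155 and 160.0 CPM (-0.24 ± 0.05, adjusted p = 0.0169). Orai2 (-0.20 ± 0.05, adjusted p = 0.0296), a calcium channel, and Brd9 (-0.15 ± 0.04, adjusted p = 0.0325), a subunit of a chromatin remodeler, were the other two, named after their values were seen. Calls that ended with a library left out were those of Coasy and Ppp2r5a (without C2, C3 or S2, adjusted p up to 0.0952) and Orai2 and Brd9 (without C1, C2, C3, S1, S2 or S3, adjusted p up to 0.200). Best known among such targets, Map3k7 was at -0.07 ± 0.05 (adjusted p = 0.357) and Tmem14c, a porphyrin carrier, at -0.02 ± 0.04 (adjusted p = 0.762). Splice junctions were not read, so a gene's level does not show whether its introns were spliced differently.

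Isoform use could be read only through the mean transcript length of a gene, weighted by the share of each isoform. Of 3201 autosomal genes with several listed transcripts, 5 were called (0.156%), and 283 passed an unadjusted p under 0.05. Tor1aip2, an activator of the AAA ATPase torsinA, was 3510, 3466 and 3468 bases long in control and 3283, 3287 and 3329 bases in Sf3b1 K700E, a change of -5.22% (limma, adjusted p = 0.0114). The other 4 moved by less than 1%: Gtf2i by -0.11%, Plcb2 by 0.06%, Med27 by 0.40% and Txnl4a, a U5 splicing factor, by 0.81%. With the effective length column in place of the length, Tor1aip2 alone was called (adjusted p = 0.016). Among other settings, its call ended in the 6 libraries alone (adjusted p = 0.139) and without control replicate 1 or 3 or Sf3b1 K700E replicate 1 (adjusted p up to 0.0724). Mecom, whose isoforms are of interest in this series, averaged 3731 bases in control and 3873 in Sf3b1 K700E, a change of 3.79% that did not pass (adjusted p = 0.265).

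Transcripts of neutrophil primary granules fell. These granules are filled at the promyelocyte stage with myeloperoxidase and serine proteases, and factors of the PU.1, C/EBP and RUNX families are known to drive their genes. The 250 bases before the RefSeq start of 3 of the genes (GRCm38.p6) are shown as the regulatory sequence next to the most abundant falls, with capitals marking GAGGAA, the core bound by PU.1, searched on both strands.
Mpo (chr11:87793534-87793783, plus strand): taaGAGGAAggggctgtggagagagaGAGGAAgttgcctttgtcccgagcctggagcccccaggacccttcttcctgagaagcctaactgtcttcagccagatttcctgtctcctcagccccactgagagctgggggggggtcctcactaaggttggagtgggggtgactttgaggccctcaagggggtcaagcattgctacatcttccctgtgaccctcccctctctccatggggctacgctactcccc
Elane (chr10:79886062-79886311, plus strand): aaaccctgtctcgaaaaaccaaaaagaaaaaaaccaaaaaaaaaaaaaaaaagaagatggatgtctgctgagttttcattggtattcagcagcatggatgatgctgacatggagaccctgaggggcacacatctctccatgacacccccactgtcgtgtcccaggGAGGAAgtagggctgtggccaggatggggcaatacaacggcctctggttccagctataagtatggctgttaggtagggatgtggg
Prtn3 (chr10:79879417-79879666, plus strand): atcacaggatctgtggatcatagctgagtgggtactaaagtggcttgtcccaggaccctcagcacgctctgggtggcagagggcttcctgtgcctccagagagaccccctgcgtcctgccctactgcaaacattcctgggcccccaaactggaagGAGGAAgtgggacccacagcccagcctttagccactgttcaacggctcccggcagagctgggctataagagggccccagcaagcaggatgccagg
Mpo holds 2 copies of GAGGAA, and Elane and Prtn3 1 each. The letters were found in 23.25% of 32851 RefSeq promoters of the same length, and in 6 of the 20 promoters of the 15 granule genes matched to the table. TGTGGT, the RUNX core, was in 4 of the 20 (14.05% of all promoters) and TTGCNNAA, a pair of C/EBP half-sites, in 5 (9.56%), and neither occurs in these 3 windows. The motifs do not overlap here, and a match is a description of letters only.

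Of the 19 granule genes tested, 11 were lower and none higher in Sf3b1 K700E. Of all tested genes 4.97% were lower, and of those at 50 CPM or more 9.06%. Their median change was -0.44, against -0.01 over all genes, and 17 of 19 did not overlap between the groups, against 33.5% of all genes. Mpo (chromosome 11, 87793784 to 87804412), the myeloperoxidase that makes hypochlorous acid, was 22107, 24061 and 23142 CPM in control and 17458, 14098 and 16213 CPM in Sf3b1 K700E. Every mutant library lay below every control library, and the mean went from 23104 ± 978 to 15923 ± 1699 CPM (SD, n = 3 each), a log2 change of -0.54 ± 0.07 (SE, adjusted p = 0.00440). Elane (chromosome 10, 79886312 to 79888216), neutrophil elastase, was 4990.3, 5623 and 5422 CPM in control and 3766, 2900.1 and 3495 CPM in Sf3b1 K700E, without overlap (-0.66 ± 0.10, adjusted p = 0.00582). Prtn3, proteinase 3, was 2189, 2701 and 2662 CPM in control and 2051, 1449 and 1728 CPM in Sf3b1 K700E (-0.53 ± 0.14, adjusted p = 0.0385). Hp (chromosome 8, 109575128 to 109579172), the hemoglobin-binding haptoglobin, was 467, 483 and 439 CPM in control and 309.6, 299.8 and 351 CPM in Sf3b1 K700E (-0.53 ± 0.08, adjusted p = 0.00582). In Mpo, Elane and Prtn3 the lowest of the 6 values was that of Sf3b1 K700E replicate 2.

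The other falls were of similar size. They were the proteases Prss57 (-0.50 ± 0.08, adjusted p = 0.00602) and Ctsg (-0.44 ± 0.09, adjusted p = 0.0148), the proteoglycan Srgn that packs granule proteins (-0.36 ± 0.10, adjusted p = 0.0460), the promyelocyte marker Ms4a3 (-0.45 ± 0.12, adjusted p = 0.0362), Gstm1 (-0.40 ± 0.10, adjusted p = 0.0282), Igsf6 (-0.44 ± 0.10, adjusted p = 0.0268) and Gfi1, the repressor that steers progenitors to neutrophils (-0.41 ± 0.09, adjusted p = 0.0224). Srgn and Gfi1 were named by rule, and the rest were chosen after their values were seen. Cebpe, the factor of later granule genes, was 69.2, 91.3 and 86.4 CPM in control and 65.7, 47.7 and 56.7 CPM in Sf3b1 K700E and not called (-0.54 ± 0.19, adjusted p = 0.0972). Ctsc, the enzyme that activates the granule proteases, went the other way and was not called (0.24 ± 0.08, adjusted p = 0.0906), and Calr, a chaperone of myeloperoxidase, was at 0.01 ± 0.05, adjusted p = 0.947. Summed over the list, levels were 42077 to 44920 CPM in control and 29496 to 34185 CPM in Sf3b1 K700E. In bulk RNA, fewer promyelocytes and less granule RNA per cell cannot be told apart. Leaving out control replicate 2, or Sf3b1 K700E replicate 2, left 4 of the 19 called, and the calls of Mpo, Elane, Prss57 and Hp held. A left-out library ended the calls of Prtn3 (without C2, C3, S2 or S3, adjusted p up to 0.186), Ctsg (without C2 or S2, adjusted p up to 0.0882), Ms4a3 (without C1, C2, C3, S1, S2 or D3, adjusted p up to 0.170), Gstm1 (without C1, C2, C3, S1 or S2, adjusted p up to 0.152), Igsf6 and Gfi1 (without C1, C2, S1 or S2, adjusted p up to 0.142) and Srgn (without C1, C2, C3, I1, I3, S1, S2 or D3, adjusted p up to 0.196).

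**Figure D3:**
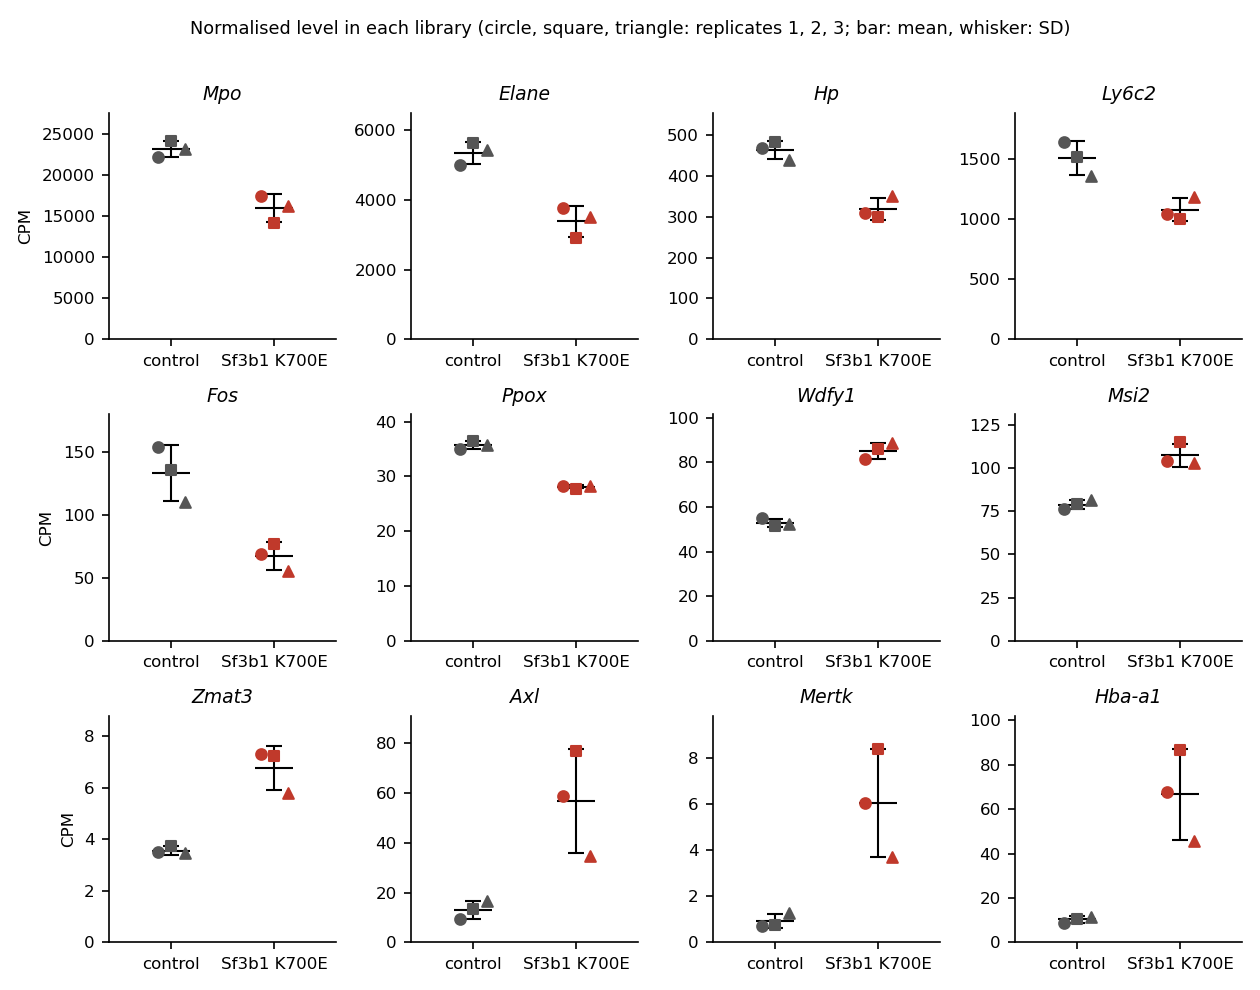
Level in CPM (vertical axis) of 12 genes in each of the 6 libraries, control on the left and Sf3b1 K700E on the right of each panel. Circles, squares and triangles are replicates 1, 2 and 3, bars are means and whiskers SD. Mpo, Elane, Hp, Ly6c2, Fos and Ppox lie lower in all 3 mutant libraries, and Wdfy1, Msi2, Zmat3, Axl, Mertk and Hba-a1 higher, with replicate 3 the lowest of the mutant values in Axl, Mertk and Hba-a1.

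Few genes of mature neutrophils were called. Of 19 genes of mature neutrophils 1 was lower and none higher (background 4.97% and 3.97%), with a median of 0.14. The 1 was Pglyrp1, a bactericidal protein (-0.48 ± 0.14, adjusted p = 0.0494). Ngp, a granule protein of myelocytes, was 71.8, 59.7 and 38.7 CPM in control and 62.6, 149 and 181 CPM in Sf3b1 K700E, so that replicates 2 and 3 of the mutant lay above the control range and replicate 1 within it (1.20 ± 0.47, adjusted p = 0.138). Lcn2, the iron-siderophore binder, was at 13.3, 13.8 and 12.6 against 15.3, 19.4 and 23.2 CPM (0.54 ± 0.18, adjusted p = 0.0802). The call of Pglyrp1 ended (without C1, C2, C3, I3, S1, S2 or D3, adjusted p up to 0.226).

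Among monocyte and dendritic genes 2 of 21 rose and 1 fell. The background, here and for the lists that follow, was 3.97% higher and 4.97% lower. Ly6c2, the surface antigen of classical monocytes and their progenitors, was 1642, 1517 and 1359 CPM in control and 1040.0, 1003 and 1183 CPM in Sf3b1 K700E, with no overlap (-0.49 ± 0.08, adjusted p = 0.00787). The lectins Clec4a1 (2.06 ± 0.35, adjusted p = 0.00787) and Clec4a3 (1.85 ± 0.32, adjusted p = 0.00787), found on monocytes and macrophages, were the rises, and both calls held. Of 25 granulocyte and monocyte transcription factors, 2 rose, 1 fell and the median was -0.10. Among the rises was Maf, a macrophage factor, at 0.458, 0.933 and 1.121 against 5.01, 6.53 and 3.46 CPM (2.57 ± 0.38, adjusted p = 0.00588), and the fall was Gfi1. Of 25 cytokine receptors 2 rose and 2 fell. Csf3r, the receptor of G-CSF, was 375, 379 and 351 CPM in control and 289, 279 and 312 CPM in Sf3b1 K700E (-0.33 ± 0.07, adjusted p = 0.0170), and Ifngr1, a chain of the interferon-gamma receptor, fell too (-0.38 ± 0.09, adjusted p = 0.0233). Il1rl1, through which mast cells and basophils sense IL-33, was 18.1, 18.2 and 19.7 CPM in control and 29.5, 27.9 and 26.9 CPM in Sf3b1 K700E, a rise in every library (0.59 ± 0.09, adjusted p = 0.00646) that held. Tgfbr2, a TGF-beta receptor chain chosen after its value was seen, rose by 0.29 ± 0.08 (adjusted p = 0.0417). With a library left out, calls ended for Ly6c2 (without S2, adjusted p up to 0.0569), Csf3r (without C1, C2 or S2, adjusted p up to 0.108), Ifngr1 (without C1, C2, C3, S1 or S2, adjusted p up to 0.142) and Tgfbr2 (without C1, C2, I3, S1, S2 or D3, adjusted p up to 0.159).

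The abundant genes that fell most, at 50 CPM or more, included other myeloid transcripts. Mgl2, a galactose lectin of macrophages and dendritic cells, was 100.4, 92.2 and 76.6 CPM in control and 49.2, 55.1 and 58.1 CPM in Sf3b1 K700E (-0.73 ± 0.12, adjusted p = 0.00787). Gpc1, a glypican, was 219, 239 and 234 CPM in control and 161, 124 and 156 CPM in Sf3b1 K700E (-0.65 ± 0.10, adjusted p = 0.00646). Both calls held. Chd7, a chromatin remodeler (-0.66 ± 0.12, adjusted p = 0.0115), Dok3, an adaptor that restrains immune receptors (-0.66 ± 0.17, adjusted p = 0.0386), Mgam, a maltase-glucoamylase (-0.64 ± 0.14, adjusted p = 0.0225), and Abca13, a lipid transporter (-0.64 ± 0.18, adjusted p = 0.0487), were lower as well. Losing a library ended the calls of Chd7 (without C2 or S2, adjusted p up to 0.0740), Dok3 (without C2, C3, S2 or S3, adjusted p up to 0.188), Mgam (without C1, C2, S1 or S2, adjusted p up to 0.126) and Abca13 (without C1, C2, C3, I2, I3, S1, S2, D1 or D3, adjusted p up to 0.204).

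Immediate early genes, which are induced within minutes of a stimulus and also by tissue handling, tended lower. Of 21, edgeR called 2 lower and none higher, with 14 lower at an unadjusted p under 0.05, and DESeq2 called 7 lower. Over all tested autosomal genes 4.97% were lower by edgeR, 1821 of 13252 were lower at an unadjusted p under 0.05, and DESeq2 called 933 of 13251 lower. The median was -0.54, and the list's summed level was 716 to 803 CPM in control and 446 to 554 CPM in Sf3b1 K700E. Fos (chromosome 12, 85473890 to 85477274), a subunit of AP-1, was 154, 136 and 110.1 CPM in control and 69.2, 77.2 and 55.1 CPM in Sf3b1 K700E, and its groups did not overlap (-0.99 ± 0.20, adjusted p = 0.0150). Fosb, its relative, was 17.8, 16.2 and 13.7 CPM in control and 7.20, 9.93 and 5.27 CPM in Sf3b1 K700E (-1.09 ± 0.29, adjusted p = 0.0424), and Jun, their partner, was 157, 159 and 145 CPM in control and 105, 91.0 and 69.7 CPM in Sf3b1 K700E and not called (-0.80 ± 0.24, adjusted p = 0.0605). Calls that ended with a library left out were those of Fos (without C1, C2 or S2, adjusted p up to 0.0659) and Fosb (without C1, C2, C3, I3, S1, S2, S3 or D1, adjusted p up to 0.126).

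Among genes averaging 2 CPM or more, the largest falls were in genes of several roles. Camk2b, a calcium-dependent kinase, was 6.29, 3.88 and 4.15 CPM in control and 1.29, 1.90 and 1.92 CPM in Sf3b1 K700E (-1.48 ± 0.27, adjusted p = 0.0103). Eps8l1, a regulator of actin, was 11.4, 11.0 and 8.497 CPM in control and 3.73, 4.21 and 5.05 CPM in Sf3b1 K700E (-1.25 ± 0.17, adjusted p = 0.00495), and its call held, as did that of Ttc21a (-0.84 ± 0.13, adjusted p = 0.00670). The adhesive matrix protein Thbs1 (-0.91 ± 0.21, adjusted p = 0.0241), the phosphatase Inpp5j (-0.79 ± 0.15, adjusted p = 0.0115), Bcas1 (-0.84 ± 0.20, adjusted p = 0.0268), the anion transporter Slc26a8 (-0.94 ± 0.23, adjusted p = 0.0297) and Faim2, an inhibitor of Fas signals (-1.03 ± 0.29, adjusted p = 0.0460), completed the 10 largest with Fos and Fosb. A left-out library ended the calls of Camk2b (without S2, adjusted p up to 0.0541), Thbs1 (without C1, C2, C3, S1 or S3, adjusted p up to 0.0969), Inpp5j (without C2 or S2, adjusted p up to 0.0745), Bcas1 (without C1, C2, C3 or S2, adjusted p up to 0.0952), Slc26a8 (without C1, C2, S1 or S2, adjusted p up to 0.152) and Faim2 (without C1, C2, C3, I3, S1, S2, D1 or D3, adjusted p up to 0.204).

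Among abundant genes that rose, Wdfy1 stood first by p. It encodes a FYVE-domain protein of endosomes (chromosome 1, 79702262 to 79776143) and was 54.9, 51.4 and 52.6 CPM in control and 81.5, 85.8 and 88.5 CPM in Sf3b1 K700E. The change was 0.69 ± 0.05 (adjusted p = 0.000302), and no left-out library brought its adjusted p above 0.00603. Hsph1, a chaperone of the HSP110 family, was 83.7, 87.4 and 89.9 CPM in control and 130.2, 136 and 113 CPM in Sf3b1 K700E (0.54 ± 0.09, adjusted p = 0.00733), a call that held. Angpt1, the ligand of the receptor Tek, was 105, 108 and 104 CPM in control and 134, 190.0 and 147 CPM in Sf3b1 K700E (0.57 ± 0.15, adjusted p = 0.0370). Rises of like size were seen in Sepp1, a selenium carrier (0.58 ± 0.12, adjusted p = 0.0151), Sh3glb1, a membrane-curving protein (0.55 ± 0.14, adjusted p = 0.0392), Tgtp2, an interferon-inducible GTPase (0.54 ± 0.12, adjusted p = 0.0218), Serpina3g, a protease inhibitor (0.52 ± 0.12, adjusted p = 0.0269), and Spns2, a sphingosine-1-phosphate exporter (0.51 ± 0.14, adjusted p = 0.0411). The calls lost with 1 library fewer were those of Angpt1 (without C1, C2, C3 or S2, adjusted p up to 0.144), Sepp1 (without C1 or C2, adjusted p up to 0.0691), Sh3glb1 (without C1, C2, C3, S1, S2, S3 or D3, adjusted p up to 0.150), Tgtp2 (without C2, S1 or S2, adjusted p up to 0.0970) and Serpina3g and Spns2 (without C1, C2, S1 or S2, adjusted p up to 0.145).

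Stem-cell and early progenitor genes leaned higher, with 5 of 28 called higher and none lower, a median of 0.45 and 25 of 28 positive (background 3.97% higher). Msi2 (chromosome 11, 88339382 to 88718306), an RNA-binding protein that sustains stem cells, was 76.4, 79.1 and 81.2 CPM in control and 104, 115 and 103 CPM in Sf3b1 K700E, every mutant library above every control one (0.45 ± 0.05, adjusted p = 0.00314), and the call held. Tal1, a transcription factor of stem and erythroid cells, was 72.1, 69.9 and 74.9 CPM in control and 99.9, 106 and 91.5 CPM in Sf3b1 K700E (0.45 ± 0.12, adjusted p = 0.0385), and Angpt1 was the third. Slamf1, the CD150 antigen of stem cells, was at 2.99, 2.65 and 3.34 against 5.92, 8.997 and 6.34 CPM (1.24 ± 0.33, adjusted p = 0.0390) and Esam, an adhesion molecule, at 2.88, 3.21 and 3.73 against 5.80, 7.87 and 5.18 CPM (0.94 ± 0.26, adjusted p = 0.0465), both chosen after their values were seen. Cd34 was 280.1, 290.4 and 316 CPM in control and 383, 393 and 364 CPM in Sf3b1 K700E and not called (0.36 ± 0.19, adjusted p = 0.253). Without control replicate 2, or without Sf3b1 K700E replicate 2, 1 of the 28 was called. With a library left out, calls ended for Tal1 (without C1, C2, C3, S1, S2 or D3, adjusted p up to 0.150), Slamf1 (without C1, C2, C3, S1, S2, S3 or D3, adjusted p up to 0.169) and Esam (without C1, C2, C3, I3, S1, S2, D1 or D3, adjusted p up to 0.198). Of 11 Hoxa genes and partners edgeR called none, with 1 higher and 1 lower at an unadjusted p under 0.05 and 1 call each by DESeq2 and limma-voom. Their median was 0.09, and Pbx3, a homeobox partner, was at 0.48 ± 0.14 (adjusted p = 0.0522).

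Macrophage genes rose. Of 24 tested, 17 were higher and none lower (background 3.97% higher), with a median of 1.88, and the summed level was 611 to 666 CPM in control and 798 to 1149 CPM in Sf3b1 K700E. Axl (chromosome 7, 25756500 to 25788924), a receptor that binds dying cells, was 9.26, 13.3 and 16.5 CPM in control and 58.9, 76.7 and 34.9 CPM in Sf3b1 K700E, so that the groups were apart and replicate 3 was the lowest of the mutant (2.12 ± 0.30, adjusted p = 0.00582). Mertk, its relative in the clearance of dying cells, was 0.707, 0.756 and 1.26 CPM in control and 6.05, 8.36 and 3.71 CPM in Sf3b1 K700E, in the same order (2.73 ± 0.42, adjusted p = 0.00643). Adgre1, the F4/80 antigen, was 11.8, 12.6 and 12.6 CPM in control and 22.1, 29.2 and 19.4 CPM in Sf3b1 K700E (0.93 ± 0.12, adjusted p = 0.00428). Spic, the transcription factor of macrophages that recycle red cells, was 0.825, 1.10 and 1.45 CPM in control and 3.98, 5.43 and 2.73 CPM in Sf3b1 K700E (1.84 ± 0.27, adjusted p = 0.00526).

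The complement chains C1qa (2.29 ± 0.42, adjusted p = 0.0111), C1qb (2.36) and C1qc (2.21), Timd4 (2.05), which binds phosphatidylserine, and Lpl, lipoprotein lipase (1.17), were higher as well and were named after their values were seen. Vcam1, the adhesion molecule that marks macrophages of erythroid islands and also stroma, was 384, 285 and 268 CPM in control and 229.7, 317 and 307 CPM in Sf3b1 K700E, with overlap and no call (-0.14 ± 0.21, adjusted p = 0.734). Also not called were the hemoglobin scavenger receptor Cd163 (0.14 ± 0.30, adjusted p = 0.806), the iron exporter Slc40a1 (0.15 ± 0.11, adjusted p = 0.405), Apoe (0.36 ± 0.18, adjusted p = 0.240) and Trem2 (0.57 ± 0.43, adjusted p = 0.433). No defining marker was at 0, and Marco alone was under the filter. Of the named macrophage calls, Axl, Mertk, Adgre1, Spic, Timd4 and Lpl held. Losing a library ended the calls of C1qa and C1qb (without C2 or S2, adjusted p up to 0.0625) and C1qc (without C1, C2 or S2, adjusted p up to 0.0736). Without control replicate 2, or without Sf3b1 K700E replicate 2, 9 of the 24 were called. Xist moved with the list, at 23.99 to 39.9 CPM in control and 77.1 to 209.7 CPM in Sf3b1 K700E. With log2 Xist as a covariate the list's median was 0.43. In that fit no gene of any list was called, and it cannot tell Xist from genotype well.

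**Figure D4:**
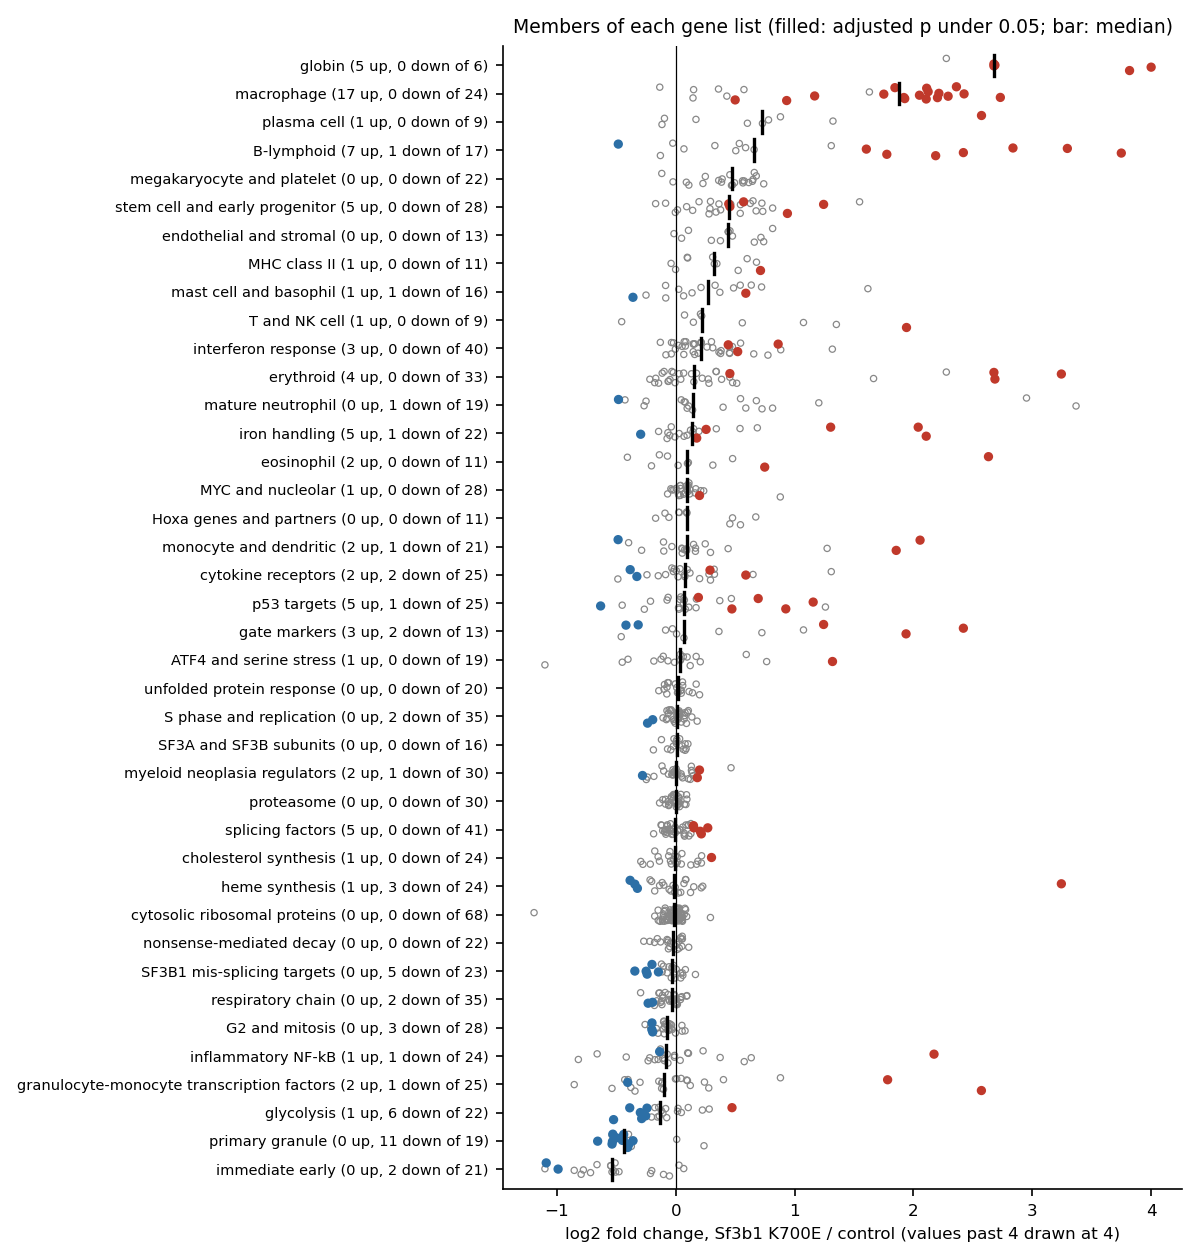
Log2 fold change (horizontal axis, Sf3b1 K700E minus control) of each tested member of the gene lists, 1 row a list. Filled points have an adjusted p under 0.05, bars mark the median and values past 4 are drawn at 4. Macrophage and globin members lie to the right, primary granule and immediate early members to the left, and most other lists centre near 0.

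Some genes of iron handling rose. Of 22 tested, 5 rose and 1 fell (background 3.97% and 4.97%), with a median of 0.13. Hmox1, also on the macrophage list, which opens the heme ring and frees its iron, was 8.23, 15.3 and 17.2 CPM in control and 66.7, 76.2 and 32.4 CPM in Sf3b1 K700E (2.11 ± 0.36, adjusted p = 0.00923). Slc11a1, the metal transporter of phagosomes, was 0.812, 0.970 and 1.40 CPM in control and 4.78, 5.64 and 2.72 CPM in Sf3b1 K700E (2.04 ± 0.31, adjusted p = 0.00602). Fth1, the ferritin heavy chain, rose slightly from a high level, at 362, 368 and 373 against 433, 468 and 415 CPM (0.25 ± 0.05, adjusted p = 0.0154). Slc11a2, the divalent metal transporter (0.18 ± 0.04, adjusted p = 0.0296), and Heph, a ferroxidase (1.30 ± 0.36, adjusted p = 0.0431), rose, and Hfe, a regulator of hepcidin, fell (-0.30 ± 0.07, adjusted p = 0.0288), and all 3 were named after their values were seen. Tfrc, the transferrin receptor, was not called (-0.15 ± 0.11, adjusted p = 0.422). The calls of Hmox1 and Slc11a1 held. Calls that ended with a library left out were those of Fth1 (without C1, C2 or S2, adjusted p up to 0.0717), Slc11a2 and Hfe (without C1, C2, C3, S1 or S2, adjusted p up to 0.150) and Heph (without C1, C2, C3, I3, S1, S2, S3 or D3, adjusted p up to 0.152).

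Globin genes rose from a low level. Of 6 tested, 5 were higher (background 3.97%), with a median of 2.68 (and 2.68 with Hba-a2 at its bound), and their summed level was 14.5 to 20.3 CPM in control and 102 to 212 CPM in Sf3b1 K700E. Hba-a1, an alpha-globin gene (chromosome 11, 32283672 to 32284486), was 8.71, 10.7 and 11.6 CPM in control and 67.7, 86.7 and 45.7 CPM in Sf3b1 K700E (2.69 ± 0.23, adjusted p = 0.00102). Hbb-b1, a beta-globin gene, was 2.83, 3.36 and 5.603 CPM in control and 56.2, 75.2 and 35.5 CPM in Sf3b1 K700E (3.82 ± 0.40, adjusted p = 0.00314). Hba-a2 had 0 counts in the control libraries and 1278 in the mutant ones, which is at least 418.9-fold higher against a floor of 3 counts over the group. Near-identical copies share reads, and Hbb-b2 and Hbb-bt had identical counts, so the share of each copy is uncertain. This pair is a single measurement, yet each gene is counted among the 5 calls and enters the median (both at 2.68). These calls held with any library left out, and limma-voom called 3 of the 6. Alas2, the X-linked enzyme that opens erythroid heme synthesis, was 0.210, 0.378 and 0.369 CPM in control and 2.44, 4.43 and 2.28 CPM in Sf3b1 K700E (3.24 ± 0.45, adjusted p = 0.00495). As in the macrophage genes, replicate 3 was the lowest mutant library in Hba-a1 and Hbb-b1. Xist had the same order in the mutant libraries (191, 209.7 and 77.1 CPM). With log2 Xist as a covariate, a fit in which no gene was called, the globin median was 2.43.

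Few other erythroid genes were called, where the background was 3.97% higher and 4.97% lower. Of 33 erythroid genes, 4 rose and none fell, with a median of 0.15, and 3 of the 4 were Hba-a1, Hbb-bt and Alas2, the other Tal1. Gata1, the master factor of the lineage and on chromosome X, was 26.6, 28.4 and 31.1 CPM in control and 44.2, 40.9 and 34.9 CPM in Sf3b1 K700E (0.48 ± 0.23, adjusted p = 0.222). Klf1, the factor of adult globin (0.38 ± 0.36, adjusted p = 0.538), and Slc4a1, the anion exchanger of red cells (1.66 ± 0.51, adjusted p = 0.0655), were not called. Of 24 genes of heme synthesis and mitochondrial iron, 1 rose and 3 fell, with a median of -0.02. Alas2 was the rise. Alas1, the form of that enzyme used outside the erythroid line, was 679, 745 and 716 CPM in control and 577, 486 and 576 CPM in Sf3b1 K700E (-0.39 ± 0.09, adjusted p = 0.0210), Ppox fell as given above, and Abcb10, a mitochondrial transporter, fell too (-0.32 ± 0.08, adjusted p = 0.0339). A left-out library ended the calls of Alas1 (without C2, C3 or S2, adjusted p up to 0.116) and Abcb10 (without C1, C2, C3, S1, S2 or D3, adjusted p up to 0.177).

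B-lymphoid genes moved in both directions. Of 17 tested, 7 rose and 1 fell (background 3.97% and 4.97%), with 3 under the filter, and the summed level was 185 to 207 CPM in control and 162 to 185 CPM in Sf3b1 K700E. The rises were at low counts: summed over 3 libraries, Ebf1, a B-lineage factor, had 5 in control and 76 in the mutant (3.75 ± 0.53, adjusted p = 0.00495), and Pou2af1, a coactivator in B cells, had 24 and 181 (2.84 ± 0.33, adjusted p = 0.00381). Cd37, a tetraspanin of many leukocytes named after its value was seen, held most of the list's level and fell, from 147, 161 and 154 to 119, 100.4 and 111 CPM (-0.48 ± 0.09, adjusted p = 0.00955). Of the 8 called, 5 passed the low-count filter only through the Sf3b1 K700E libraries, Ebf1 and Pou2af1 among them, so a rise was the only call open to those. Without control replicate 2, 3 rose and none fell, and without Sf3b1 K700E replicate 2, 5 rose and none fell. Xist rose with them from 23.99 to 39.9 CPM up to 77.1 to 209.7 CPM. With log2 Xist as a covariate, a fit in which no gene was called, the list's median went from 0.66 to 0.47, and Ebf1 was at 3.51. The call of Cd37 ended (without C2 or S2, adjusted p up to 0.0674).

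Among plasma-cell genes 1 of 9 rose (background 3.97% higher): Jchain, the chain that joins IgA and IgM, at 2.46, 2.38 and 1.42 against 8.16, 21.2 and 7.79 CPM (2.57 ± 0.44, adjusted p = 0.00846). Cd4 was the 1 rise among 9 T and NK genes (1.94 ± 0.44, adjusted p = 0.0229), where 10 others were under the filter and the summed level was 13.4 to 14.0 CPM against 17.3 to 21.7 CPM. Ccr3, the eotaxin receptor, was 1.87, 2.44 and 3.36 CPM in control and 14.8, 23.0 and 9.82 CPM in Sf3b1 K700E (2.63 ± 0.43, adjusted p = 0.00746), and Ear2, a ribonuclease of eosinophils, rose too (0.75 ± 0.19, adjusted p = 0.0303), as 2 of 11 eosinophil genes. Of 16 mast-cell and basophil genes, Il1rl1 rose and Srgn fell. Of 22 megakaryocyte and platelet genes edgeR called none, with 6 higher and none lower at an unadjusted p under 0.05 and 1 call each by DESeq2 and limma-voom, although 20 were positive and the median was 0.47. Selp, P-selectin, was 31.8, 35.7 and 37.97 CPM in control and 52.5, 56.8 and 46.4 CPM in Sf3b1 K700E and F2r, a thrombin receptor, 33.6, 37.9 and 41.5 CPM in control and 58.0, 78.5 and 52.2 CPM in Sf3b1 K700E. Both were without overlap but not called (adjusted p = 0.0640 and 0.0864). Of 13 endothelial and stromal genes edgeR called none (2 higher at an unadjusted p under 0.05, 2 by DESeq2 and none by limma-voom), with a median of 0.44 and summed levels of 165 to 191 CPM against 208 to 250 CPM. With a library left out, calls ended for Cd4 (without C1, C2, C3 or S2, adjusted p up to 0.115) and Ear2 (without C2, C3, S1 or S2, adjusted p up to 0.134).

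Another pair of large rises was in genes known mainly from outside the blood. Kcnj10, an inward-rectifier potassium channel, was 1.38, 1.69 and 2.29 CPM in control and 10.3, 13.4 and 6.84 CPM in Sf3b1 K700E (2.51 ± 0.29, adjusted p = 0.00381). Sdc3, a syndecan, was 6.59, 9.55 and 12.5 CPM in control and 48.0, 52.4 and 25.8 CPM in Sf3b1 K700E (2.14 ± 0.33, adjusted p = 0.00644) and was named from the comparison with inv(3). Both calls held, and in both the lowest mutant value was that of replicate 3.

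Some p53 targets rose. Of 25, 5 were higher and 1 lower (background 3.97% and 4.97%), with a median of 0.07. Zmat3 (chromosome 3, 32334792 to 32365665), an RNA-binding protein induced by p53, was 3.48, 3.74 and 3.45 CPM in control and 7.30, 7.22 and 5.77 CPM in Sf3b1 K700E, with the groups apart (0.93 ± 0.13, adjusted p = 0.00440), and its call held. Tnfrsf10b, a death receptor, was 2.78, 2.81 and 2.84 CPM in control and 3.99, 4.002 and 3.70 CPM in Sf3b1 K700E (0.47 ± 0.10, adjusted p = 0.0150). Ccng1, cyclin G1, rose by less (0.19 ± 0.04, adjusted p = 0.0181). Cdkn1a, the p21 inhibitor of the cell cycle, was 4.52, 5.51 and 6.00 CPM in control and 9.83, 8.24 and 7.85 CPM in Sf3b1 K700E (0.69 ± 0.16, adjusted p = 0.0233) and Phlda3, an inhibitor of AKT, rose as well (1.16 ± 0.26, adjusted p = 0.0197), whereas the death receptor Fas fell (-0.63 ± 0.17, adjusted p = 0.0371), all 3 named after their values were seen. Mdm2, the ligase that degrades p53 (0.04 ± 0.04, adjusted p = 0.573), and Bax, which opens mitochondria in apoptosis (-0.07 ± 0.08, adjusted p = 0.621), were not called. Losing a library ended the calls of Tnfrsf10b (without C2 or S2, adjusted p up to 0.0747), Ccng1 (without C2, C3 or S2, adjusted p up to 0.0868), Cdkn1a (without C1, C2, S1 or S2, adjusted p up to 0.0854), Phlda3 (without C1, C2 or S2, adjusted p up to 0.0985) and Fas (without C1, C2, C3, I3, S1, S2, S3 or D3, adjusted p up to 0.121).

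Interferon-response genes leaned higher with few calls. Of 40, edgeR called 3 higher and none lower, with 34 positive, a median of 0.21 and 18 higher at an unadjusted p under 0.05, and DESeq2 called 12. The background was 3.97% higher and 4.97% lower by edgeR. At an unadjusted p under 0.05 it was 1606 of 13252 higher, and by DESeq2 870 of 13251. Rtp4 was 3.37, 3.47 and 3.92 CPM in control and 6.87, 7.65 and 5.02 CPM in Sf3b1 K700E, without overlap (0.86 ± 0.15, adjusted p = 0.00787), and its call held. Rsad2, the antiviral enzyme viperin (0.52 ± 0.11, adjusted p = 0.0190), and Oas2, an oligoadenylate synthetase (0.44 ± 0.11, adjusted p = 0.0297), were the others. Of 11 MHC class II genes 1 rose, Ctss, the protease of the invariant chain (0.71 ± 0.19, adjusted p = 0.0441), and the median was 0.32. Of 24 inflammatory genes Il1a, interleukin 1 alpha, which passed the filter only through the Sf3b1 K700E libraries, rose (2.17 ± 0.58, adjusted p = 0.0398) and Irak1, an X-linked kinase of its receptor, fell (-0.14 ± 0.03, adjusted p = 0.0259). Calls that ended with a library left out were those of Rsad2 (without C2 or S2, adjusted p up to 0.0972), Oas2 (without C1, C2, C3, S1 or S2, adjusted p up to 0.130), Ctss (without C1, C2, C3, I3, S1, S2 or D3, adjusted p up to 0.167), Il1a (without C1, C2, C3, I3, S1, S2, D1 or D3, adjusted p up to 0.177) and Irak1 (without C1, C2, C3, S2 or S3, adjusted p up to 0.185).

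In metabolism, glycolysis leaned lower. Of 22 genes 6 fell and 1 rose, with a median of -0.13. The background was 4.97% lower, and 9.06% among genes at 50 CPM or more. For the list, without Sf3b1 K700E replicate 2 none was called and without control replicate 2 1 fell. Egln3, a prolyl hydroxylase that senses oxygen (-0.25 ± 0.04, adjusted p = 0.00760), and Gpi1, glucose-phosphate isomerase (-0.30 ± 0.06, adjusted p = 0.0133), fell, and Slc2a3, a glucose transporter, rose (0.47 ± 0.09, adjusted p = 0.0126). Hk3, a hexokinase of myeloid cells (-0.39), Aldoa (-0.24), Eno1 (-0.29) and the lactate exporter Slc16a3 (-0.52) were the other falls, named after their values were seen. Of 24 genes of cholesterol synthesis Hmgcs1 alone was called (0.30 ± 0.06, adjusted p = 0.0107). Of 35 respiratory-chain genes 2 fell, Uqcrc1 (-0.23 ± 0.06, adjusted p = 0.0303) and Ndufv1 (-0.20 ± 0.05, adjusted p = 0.0435). A left-out library ended the calls of Egln3 (without S2, adjusted p up to 0.0575), Gpi1, Slc2a3 and Hmgcs1 (without C2 or S2, adjusted p up to 0.0872), Hk3 and Eno1 (without C2, C3 or S2, adjusted p up to 0.135), Aldoa and Uqcrc1 (without C2, C3, S2 or S3, adjusted p up to 0.188), Slc16a3 (without C2, C3, S1 or S2, adjusted p up to 0.141) and Ndufv1 (without C2, C3, I3, S2, S3, D2 or D3, adjusted p up to 0.214).

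Few growth and stress genes were called. The background was 3.97% higher and 4.97% lower, and 2.26% and 9.06% among genes at 50 CPM or more. Of 28 genes of G2 and mitosis 3 fell and 25 were negative, by a median of -0.07: Kif23, a kinesin of cytokinesis (-0.20 ± 0.04, adjusted p = 0.0141), the kinase Aurkb (-0.20 ± 0.05, adjusted p = 0.0392) and the kinesin Cenpe (-0.20 ± 0.05, adjusted p = 0.0472). Of 35 S-phase genes Lig1, a DNA ligase (-0.19 ± 0.04, adjusted p = 0.0181), and Tk1, thymidine kinase (-0.24 ± 0.05, adjusted p = 0.0201), fell, and the median was 0.01. Among 28 MYC and nucleolar genes Npm1, the nucleolar chaperone, rose (0.20 ± 0.05, adjusted p = 0.0326), and 24 were positive. Of 30 regulators mutated in myeloid neoplasia Npm1 and Eed, a Polycomb subunit (0.18 ± 0.04, adjusted p = 0.0244), rose and Tet2, which oxidises methylcytosine, fell (-0.28 ± 0.07, adjusted p = 0.0277). Nupr1, a stress-induced chromatin protein, was 0.550, 0.693 and 0.616 CPM in control and 1.67, 1.59 and 1.37 CPM in Sf3b1 K700E (1.31 ± 0.25, adjusted p = 0.0107), the 1 rise among 19 ATF4 targets. The calls lost with 1 library fewer were those of Kif23 and Nupr1 (without C2 or S2, adjusted p up to 0.0745), Aurkb (without C2, C3, I3, S2 or S3, adjusted p up to 0.221), Cenpe (without C1, C2, C3, I1, I3, S1, S2, S3, D1, D2 or D3, adjusted p up to 0.218), Lig1, Tk1 and Eed (without C2, C3 or S2, adjusted p up to 0.134), Npm1 (without C2, C3, S2, S3 or D3, adjusted p up to 0.140) and Tet2 (without C1, C2, S1 or S2, adjusted p up to 0.171).

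EdgeR called none of 68 cytosolic ribosomal proteins (1 higher at an unadjusted p under 0.05, and 1 call each by DESeq2 and limma-voom), none of 30 proteasome subunits (1 lower at an unadjusted p under 0.05, none by DESeq2 or limma-voom) and none of 20 genes of the unfolded protein response (none at an unadjusted p under 0.05 or by the other tools). Rpl30, a ribosomal protein, came nearest, at 35.6, 31.9 and 30.9 against 40.3, 39.6 and 40.4 CPM (0.29 ± 0.08, adjusted p = 0.0529).

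The same mutation was read in a second setting, as the double group against inv(3) alone, which shares no library with the comparison above. There 2967 autosomal genes were called (22.4%), 1743 higher and 1224 lower. The inv(3)-alone libraries had Xist at 1794 to 2095 CPM and 4 to 8 Y-linked counts, against 23.2 to 40.5 CPM and 22380 to 23788 counts in the double group, so sex-linked RNA cannot be told apart from genotype in that contrast. Of the 526 genes higher without inv(3), 215 were also higher with it, which is 40.9% of the first list and 12.3% of the second, and 7 were lower. Of the 659 lower genes 339 were also lower, 51.4% and 27.7%, and 9 were higher. The difference between the 2 effects, tested as an interaction, was called in 104 autosomal genes (0.785%), 39 of them called without inv(3).

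Granule genes fell in both settings. With inv(3), where 1743 of the 13252 genes were higher and 1224 lower, 13 of the 19 were lower and none higher, and no member's difference between the settings was called. Mpo was at -0.34 ± 0.07 with inv(3) (adjusted p = 0.00715) and Elane at -0.54 ± 0.10 (adjusted p = 0.00356). Msi2 was higher in both, at 0.61 ± 0.05 with inv(3) (adjusted p = 5.48e-05). Zmat3 was higher by 0.54 ± 0.12 (adjusted p = 0.0101). Of the 28 stem-cell genes 20 were higher with inv(3), and of the 28 genes of G2 and mitosis 27 were lower.

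Of the macrophage genes 2 rose and 3 fell with inv(3), and the difference between the settings was called for 3 members. Adgre1 was at -0.57 ± 0.12 with inv(3), a difference of -1.51 ± 0.17 (adjusted p = 0.00204), and Axl was at 0.26 ± 0.31, a difference of -1.86 ± 0.43 (adjusted p = 0.0731). Of the 6 globin genes none was called with inv(3), their median was 0.72, and the difference was called for 3. Hbb-b2 and Hbb-bt, a single measurement with identical counts, both enter that median and those counts. They averaged 7.79 CPM in Sf3b1 K700E, 27.4 in inv(3) alone and 48.9 in the double group. They were at 0.84 ± 0.34 with inv(3), and their difference of -1.84 ± 0.54 was not called (adjusted p = 0.135). Hba-a1 was at -0.46 ± 0.23, a difference of -3.15 ± 0.32 (adjusted p = 0.00104). Hbb-b1 was at 0.60 ± 0.36, a difference of -3.22 ± 0.53 (adjusted p = 0.0232). Kcnj10 (-2.81 ± 0.43, adjusted p = 0.0152) and Sdc3 (-2.38 ± 0.46, adjusted p = 0.0449) were lower by the same measure. Xist differs in opposite directions in the 2 contrasts, higher with the mutation without inv(3) and lower with it, and its part in these differences was not tested.

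Single genes differed most between the settings. Wdfy1, risen without inv(3), was at -0.09 ± 0.05 with it (adjusted p = 0.257), a difference of -0.77 ± 0.07 with the smallest p of all autosomal genes but Capn11 (adjusted p = 0.000376). Its mean was 52.9 CPM in control, 85.3 in Sf3b1 K700E, 116 in inv(3) alone and 109 in the double group, so control was the lowest group. Il1rl1, also risen without inv(3), was at -0.99 ± 0.13 with it (adjusted p = 0.000802), a difference of -1.57 ± 0.16 (adjusted p = 0.000609). Eps8l1, fallen without inv(3), was at 0.74 ± 0.17 with it, a difference of 1.99 ± 0.24 (adjusted p = 0.00302), and Camk2b at 1.38 ± 0.26, a difference of 2.86 ± 0.38 (adjusted p = 0.00582). Fos was at -0.08 ± 0.20 with inv(3), and its difference of 0.91 ± 0.28 was not called (adjusted p = 0.141). Ppox was at -0.11 ± 0.04 with inv(3), and its difference of 0.24 ± 0.06 was not called either (adjusted p = 0.103).

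**Figure D5:**
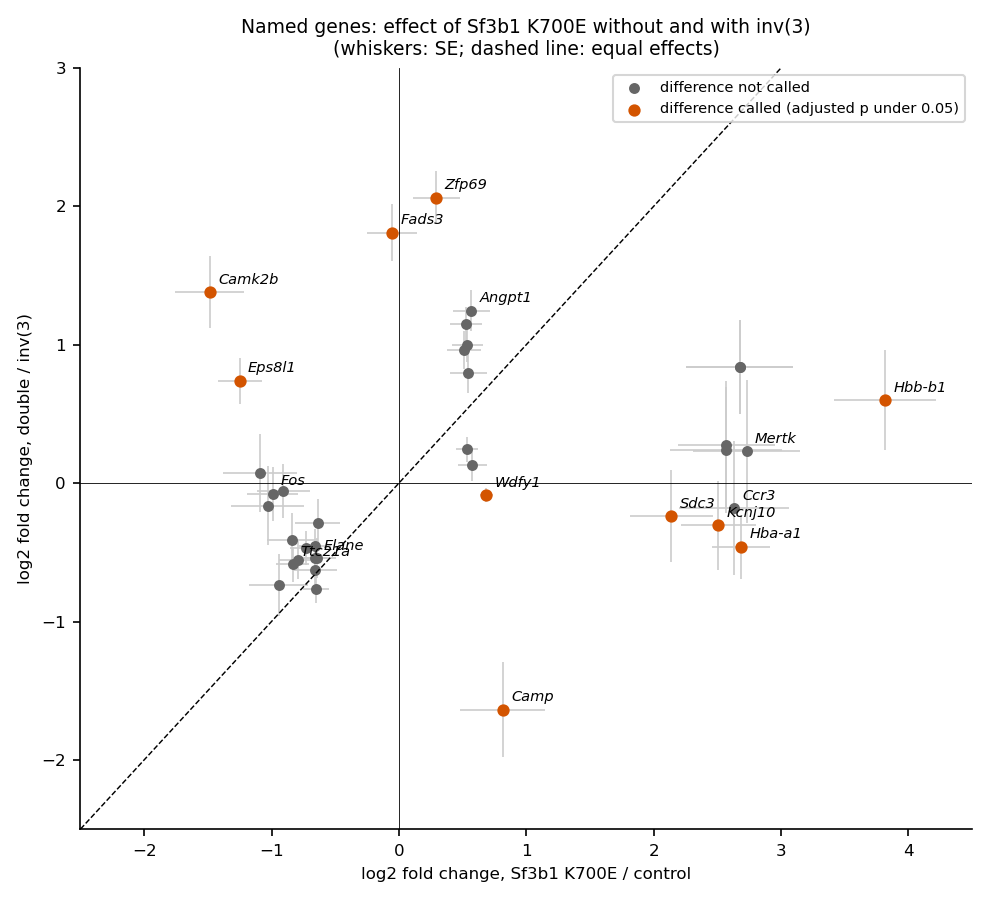
Log2 fold change of the genes named for the largest changes, for Sf3b1 K700E against control (horizontal axis) and for the double group against inv(3) alone (vertical axis), with SE whiskers. The dashed line marks equal effects, and orange points are genes whose difference between the effects was called. Hba-a2 and Capn11 are not drawn. Elane lies near the line, and Hba-a1, Hbb-b1, Kcnj10 and Sdc3 lie far below it.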

How the data were processed

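Per the labels' protocols, poly(A) RNA was made into unstranded TruSeq libraries. Per the file headers, each deposited table is RSEM gene output. It gives the authors' expected counts (estimated fragments per gene, not normalized), TPM, FPKM and, in bases, a gene's length and its effective length. The deposited TPM and FPKM values were not used for tests. Per the submitters' processing notes, bcl2fastq was used and the genome was mm10. The aligner and the versions: not given in the sources used here.

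Groups came from the labels. Expected counts were rounded to whole numbers (3.63% of values changed), filtered with filterByExpr by group (13755 of 24411 genes kept), given TMM scaling and modelled by robust quasi-likelihood in edgeR 4.0.16 under R 4.3.3, over all 12 libraries in 4 groups. Two-sided p-values were adjusted by Benjamini-Hochberg over all 13755 genes, with 0.05 as the limit. Counts across the transcriptome took autosomal genes alone, and counts of list members also took X-linked ones such as Alas2 and Irak1. CPM are counts scaled to library size with TMM factors, and the SE of a log2 fold change comes from the F statistic. Length was tested with limma 3.58.1 (trend, robust) where a gene had 50 or more expected counts in all libraries and over 1 transcript. Gene positions come from a GRCm38 annotation, with 23194 genes matched by symbol, 1124 by accession, 44 by synonym and 49 not matched. Reads of near-identical copies and of antisense partners cannot be assigned with certainty. A floor of 3 counts and the 95% interval of a ratio cover counting error only.

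The members of the comparison and the gene lists were chosen with earlier results of these data known. Named genes are Sf3b1, Mecom, Gata2 and Rpn1; the 10 largest rises and 10 largest falls among called autosomal genes averaging 2 CPM or more without overlap; 8 each way at 50 CPM or more; the 3 members with the lowest p in each list; 5 each way for the difference between settings; and up to 8 called genes for length. Predicted genes and pseudogenes were not named. Other list members are named for their known role or, where stated, after their values were seen. Lists are described by counts and medians, with no test of the list.

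In a simulation of the comparison of Sf3b1 K700E and control (13755 genes, 200 changed), the code recovered 87.5%, 80% and 52.5% of genes changed by -2, -1 and -0.5 log2 units and 75% and 82.5% of those changed by 1 and 0.5, with 8 false calls. The alternatives tried were DESeq2 1.42.0, limma-voom, RLE scaling, no filter on low counts, a filter at a mean of 5 CPM, the 6 libraries alone, a block for the replicate number, an offset for effective length, genes over 2000 CPM left out, autosomal genes alone, log2 Xist as a covariate in 9 libraries, and each library left out in turn. Limma-voom with the Xist covariate, and the 9 libraries without it, were added after the data were seen. Some results for single genes are left out here.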

Additional observations from a re-analysis of the deposited data

Results flagged for a closer look

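The effect of Sf3b1 K700E differed between the settings without and with inv(3) in the following genes, by the interaction test in edgeR with 3 libraries per group. The difference was above 0, in favour of a higher effect with inv(3), in 5 of them. Capn11, a calpain protease, had 633 counts in control, 270 in Sf3b1 K700E, 2 in inv(3) alone and 2154 in the double group, summed over 3 libraries. The ratio of the last pair was 1079 (95% interval 298.2 to 8912, counting error only), and the fitted difference of 11.11 log2 units depends on the prior count. Camk2b differed by 2.86, Eps8l1 by 1.99, the desaturase family member Fads3 by 1.86 and the zinc-finger gene Zfp69 by 1.77.

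The difference was below 0 in the other 5. Hbb-b1 differed by -3.22, Hba-a1 by -3.15, Kcnj10 by -2.81, Camp, an antimicrobial peptide of neutrophil granules, by -2.45 and Sdc3 by -2.38. Camp itself was not called without inv(3), at 67.5, 61.2 and 38.5 CPM in control and 56.7, 109 and 129 CPM in Sf3b1 K700E. The inv(3)-alone libraries lack Y-linked RNA, and its part in these differences cannot be told apart from genotype.

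Xist, outside the autosomal genes compared, was higher in Sf3b1 K700E than in control by 2.28 log2 units, in all 3 libraries, beside Y-linked RNA at the level of the controls.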

How the results depend on the processing

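Counts of called genes depended on the setting more than directions did. Over the named genes and alternatives, 3004 values kept direction and side of the threshold, 503 lost the call, 95 gained one and 12 reversed. DESeq2 called 870 genes higher (526 in the report) and 594 differences between the settings with and without inv(3) (104 in the report). Leaving out 1 library gave 113 to 752 higher, 52 to 843 lower, 22 to 306 differences and 0 to 6 length calls, the lowest higher and lower counts without control replicate 2 or Sf3b1 K700E replicate 2. With log2 Xist as a covariate, edgeR called 0 higher and 0 lower (223 and 169 at an unadjusted p under 0.05), as did limma-voom (243 and 182). Length calls went from 5 to 1 with the effective length column, and limma called 0 in the 6 libraries alone (284 at an unadjusted p under 0.05) and 0 without control replicate 1 or 3 (276 and 234). The cause of these changes was not tested.

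The replicate number as a block gave 299 higher, 337 lower, 50 differences and 1 length call. Tor1aip2 was not that call (adjusted p = 0.0783). Same-numbered libraries did not deviate together (correlations of -0.591, -0.112 and -0.529). Control replicate 1 with Sf3b1 K700E replicate 3 was at 0.570, and control replicate 3 with Sf3b1 K700E replicate 1 at 0.497. With 3 libraries a group, these values cannot decide whether the numbers pair the samples.

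Reversed values were those of genes near 0 or in the Xist fits. Sf3b1 (-0.02) was at 0.011 with a mean of at least 5 CPM, 0.10 in each Xist fit, and -0.039 to 0.025 with 1 library left out, above 0 without control replicate 1 (0.023) or Sf3b1 K700E replicate 1. Fads3 (-0.05) was at 0.083 and 0.17 in the edgeR and limma-voom Xist fits, and -0.14 to 0.042 with 1 library left out, above 0 without Sf3b1 K700E replicate 3. H2-Eb1 was at -0.70 and -0.50 in those fits, and in the edgeR one Ear2 was at -0.0017 and Oas2 at -0.054. With 3 libraries a group, genes under 2 CPM carry the widest errors.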
